A study of Mus musculus with 18 samples.

Results

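In the 9 bisulfite libraries, 1269 distinct 5-methylcytosine (m5C) sites lay in the 3′ untranslated region (3′ UTR) of an mRNA, among 17998 sites in mRNA and 25890 sites in all. A site is 1 cytosine on 1 strand of the mouse genome (build mm10), and it was counted here when it lay in the 3′ UTR of a curated RefSeq protein-coding transcript on its own strand, more than 100 nt past the stop codon and in no coding sequence (CDS) of another transcript of the gene. The sites fell in 440 of 21000 annotated protein-coding genes, and 1263 of them were in the 3′ UTR of every transcript of their gene that holds them. The samples are labelled as cortical neurons of C57BL/6 mice at embryonic day 18. Control neurons were left untreated, while the OGD/R 1.5 h and OGD/R 3 h neurons were deprived of oxygen and glucose for 1.5 or 3 h and then kept for 24 h under normal conditions. Each group has 3 libraries of RNA that was depleted of ribosomal RNA (rRNA) and treated with bisulfite, each with a mock library whose RNA was not converted.

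m5C is a methyl mark on carbon 5 of cytosine that is dense in tRNA and rRNA and sparse in mRNA, where the methyltransferases NSUN2 and NSUN6 write it. The 3′ UTR runs from the stop codon to the poly(A) tail and carries the sites through which microRNAs and RNA-binding proteins set the stability, translation and place of an mRNA. Bisulfite turns unmethylated cytosine into uracil where the base is unpaired, and a cytosine that stays a cytosine is read as m5C.

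The sequences below show the sites listed in all 9 libraries, genes with many 3′ UTR sites, and sites called in all libraries of 1 group alone. Each is a 21 nt window of mm10 on the strand of the transcript, 5′ to 3′, centred on a listed site, and capitals mark each cytosine of the window that was listed in at least 1 library.
Lars2, chr9:123461958-123461978, + strand: aCagggataaCtggCttgtgg
Tmem38b, chr4:53860685-53860705, + strand: CttgtCtgatCtCtggagCta
Vmp1, chr11:86584119-86584139, − strand: gCttatCagaCtgatgttgaC
Prkce, chr17:86657350-86657370, + strand: tggcagaactCttgCCtggct
Ccl25, chr8:4359875-4359895, + strand: gtaggaggggCttgttaggaa
Actb, chr5:142903384-142903404, − strand: ggaggatggtCgcgtCcatgC
Arhgdia, chr11:120578748-120578768, − strand: ggaaCgtgtgCtgggggCCgt
Pigr, chr1:130851645-130851665, + strand: tggtgtgctcCtgcaatccca
Slc43a2, chr11:75577248-75577268, + strand: gaggtgtgttCtggtgtgtCt
Muc13, control only, chr16:33819012-33819032, + strand: gtgtgaagacCgaagcttgcc
Gng12, OGD/R 1.5 h only, chr6:67018458-67018478, + strand: gaagaggggaCcgagagCCtc
Pgd, OGD/R 3 h only, chr4:149150283-149150303, − strand: CtctgCtgtcCtccagtcagt

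The samples were checked against cell type markers by whether a marker gene had a site anywhere in its mRNA. None of 21 neuron markers had a site in any library, and of 12 markers of astrocytes, oligodendrocytes and microglia only Aldh1l1 had one. All 29 markers of intestinal epithelium had an mRNA site, with 134 to 154 such sites in a control library, 86 to 93 in OGD/R 1.5 h and 292 to 312 in OGD/R 3 h. Of 9 annotated erythroid markers, Hbb-bs and Hbb-bt had 31 sites in each OGD/R 3 h library and 0 elsewhere, and of 10 neutrophil markers Ngp, S100a8 and S100a9 had 21 and 0. Smooth muscle markers had a site in 8 of 11 genes and fibroblast markers in 2 of 9. A site is listed only where coverage and level pass a limit, so a gene without one can still be expressed. In all groups the labelled cell type is therefore not borne out by its defining markers, and the parts that cell type and treatment have in the differences between groups cannot be told apart.

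The depth of the libraries is unknown, since the files give no coverage, and a library listed 5423 to 7772 sites in all. In control and OGD/R 3 h, the coverage that the authors list per site differed between the 3 libraries of a group by less than the sampling noise, and no such coverage was used for OGD/R 1.5 h. The 3 libraries of a group were counted as 1 sample, an SD gives the spread between libraries only, and no difference between groups has a replicate check or a p-value.

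A control library held 267, 284 and 271 sites in 3′ UTRs, an OGD/R 1.5 h library 259, 260 and 265, and an OGD/R 3 h library 419, 363 and 374. Each OGD/R 3 h library exceeded each of the others, and all OGD/R 1.5 h libraries lay just below control. The means were 274 ± 8.89, 261 ± 3.21 and 385 ± 29.7 (SD, 3 libraries), a log2 ratio to control of -0.07 for OGD/R 1.5 h and of 0.49 for OGD/R 3 h. Among sites with no neighbour up to 10 nt away, the ratio of OGD/R 3 h was 0.19. The total of mRNA sites moved in the same order, from 3501 to 3738 in OGD/R 1.5 h over 3792 to 4137 in control to 4703 to 5229 in OGD/R 3 h, and how far the 3′ UTR counts follow it or the unknown depth was not tested. As a share of the mRNA sites of a library, 3′ UTR sites made up 6.88%, 6.86% and 7.15% in controls, 7.40%, 7.33% and 7.09% in OGD/R 1.5 h, and 8.01%, 7.72% and 7.95% in OGD/R 3 h. The share in OGD/R 3 h was above every control library, while OGD/R 1.5 h overlapped control. The difference to OGD/R 3 h of 0.929 percentage points was 0.108 points without the 5 genes with most 3′ UTR sites and -0.0242 points among sites that had no neighbour up to 10 nt away.

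The number of genes did not rise with the number of sites. A control library had 3′ UTR sites in 146, 147 and 139 genes, an OGD/R 1.5 h library in 126, 124 and 130, and an OGD/R 3 h library in 153, 130 and 134. The OGD/R 3 h libraries spanned the control range, and the OGD/R 1.5 h libraries lay below it. Without the 5 genes with most sites, a library held 193, 198 and 192 sites in controls, 168, 167 and 178 in OGD/R 1.5 h, and 277, 224 and 230 in OGD/R 3 h, and the log2 ratio of OGD/R 3 h to control was 0.33.

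**Figure D1:**
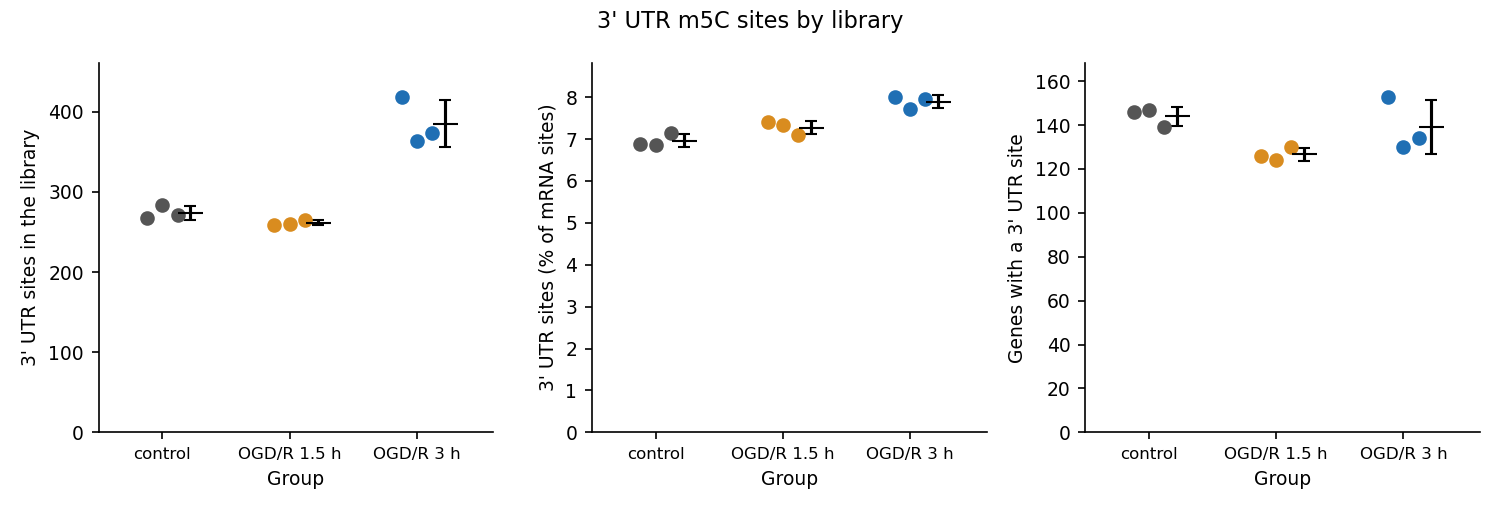
Number of 3′ UTR m5C sites, their share of all mRNA sites in percent, and number of genes with a 3′ UTR site, each point being 1 library and the line with the error bar beside them the mean ± SD of a group. OGD/R 3 h libraries hold 363 to 419 sites against 259 to 284 in the other libraries, while the numbers of genes in OGD/R 3 h (130 to 153) and control (139 to 147) overlap.

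Most sites were seen in few libraries. Of the 1269 sites, 659 (51.9%) were listed in 1 library, 269 in 2 and 183 in 3, and 52 in all 9. The union of the libraries held 482 sites in control, 479 in OGD/R 1.5 h and 659 in OGD/R 3 h, and 283 (58.7%), 266 (55.5%) and 464 (70.4%) of these were found in that group alone. These shares were close to those of CDS sites, at 55.2%, 59.3% and 67.9%. Within 100 nt of the start codon they were higher, at 73.9%, 69.7% and 81.7%. In 3′ UTRs, control and OGD/R 1.5 h shared 156 sites, 32.4% of the control and 32.6% of the OGD/R 1.5 h union. Control and OGD/R 3 h shared 138, which was 28.6% and 20.9%, and the OGD/R groups shared 152, or 31.7% and 23.1%. Only 95 sites (7.49%) in 22 genes were listed in all 3 groups. In 63 of these 95 the 101 nt around the site had another copy in the genome, against 271 of all 1269 sites (21.4%, in 61 genes), so that reads of one copy can be counted at another.

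Pairs of libraries of 1 group shared 32.7% to 43.2% of their 3′ UTR sites, and pairs from different groups 14.3% to 21.1%. Of the union of a group, 25.5% of sites in control, 23.0% in OGD/R 1.5 h and 26.7% in OGD/R 3 h were listed in all 3 libraries. The same shares were lower for CDS sites, at 17.3%, 10.9% and 14.7%, and higher within 100 nt of the start codon, at 43.4%, 34.6% and 64.0%. By genes rather than sites, 235, 216 and 214 genes had a 3′ UTR site in the 3 groups and 59 had one in all of them.

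Sites called in all 3 libraries of OGD/R 3 h and in none of control numbered 94 of 1003 sites of these groups (9.37%, in 43 genes), where all mRNA sites gave 15.0%. In the other direction there were 43 sites (4.29%), with 9.93% over all mRNA sites. For OGD/R 1.5 h against control, 36 of 805 sites (4.47%) were in OGD/R 1.5 h alone, against 6.26% of mRNA sites, and 43 (5.34%) in control alone, against 10.2%. Between the OGD/R groups, 92 of 986 sites (9.33%) were in OGD/R 3 h alone, against 15.2%, and 41 (4.16%) in OGD/R 1.5 h alone, against 6.66%. The 3′ UTR thus lay below the mRNA background in all 6 counts, which share their groups. That background mixes unlike regions. Of the OGD/R 3 h union, 64.0% of sites within 100 nt of the start codon were in all 3 libraries. In 3′ UTRs it was 26.7%, and in the CDS 14.7%. The 6 counts were not set against CDS sites alone, so they do not set 3′ UTRs apart. Sites in all 3 libraries of a group and in neither other group numbered 32 in control (30 genes), 29 in OGD/R 1.5 h (24 genes) and 78 in OGD/R 3 h (41 genes). Of the 78, 13 were in Actb and 5 each in Lars2 and Tmem38b, genes where most site windows had another copy in the genome. No share over all mRNA sites is given for this count, so it is no result about 3′ UTRs as such.

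Of the 52 sites listed in all 9 libraries, 30 were in Lars2, 16 in Tmem38b, 3 in Vmp1, 2 in Prkce and 1 in Ccl25. The files give each site a score that grows with coverage and methylation level together and is capped at 1000. In 23 of the 52 sites the score was at this cap in every library, 7 of them in Lars2, 13 in Tmem38b and all 3 in Vmp1.

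Lars2 encodes the mitochondrial leucyl-tRNA synthetase, and its 44 sites lay 267 to 457 nt past the stop codon in a 3′ UTR of 997 nt, at chr9:123461945-123462135. In a stretch of 105 nt all 28 cytosines were listed, the longest run of 3′ UTR sites. All 44 windows had another copy in the genome, and as background the letters of the Lars2 sequence above are those known from the large-subunit rRNA. RefSeq annotates no rRNA at this place, and a match to a full-length rRNA was not tested. A control library listed 33, 33 and 32 Lars2 sites, an OGD/R 1.5 h library 33, 31 and 32, and an OGD/R 3 h library 43 each.

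In 11 of the Lars2 sites that control and OGD/R 1.5 h list throughout, each OGD/R 1.5 h score lay below each control score, while 7 sites were at the cap in all 9 libraries. At chr9:123461983 the scores were 1000, 1000 and 1000 in controls, 663, 229 and 245 in OGD/R 1.5 h and again 1000 in each OGD/R 3 h library, so the OGD/R 1.5 h libraries lay below the rest. At chr9:123462078 of Lars2 the scores were 263, 1000 and 784 in controls, 69, 101 and 242 in OGD/R 1.5 h, and 1000 in each OGD/R 3 h library, a log2 difference of OGD/R 1.5 h to control of -2.30. Because of the cap these differences are no exact sizes.

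Tmem38b encodes an intracellular monovalent cation channel of the endoplasmic reticulum. Its 23 sites, 575 to 669 nt past the stop codon, all lay in an rRNA gene that RefSeq places on the same strand inside the 3′ UTR, at chr4:53860652-53860770, and 17 of them had another copy of their window. A library listed 16, 16 and 17 of these sites in control, 18 each in OGD/R 1.5 h and 23 each in OGD/R 3 h. The added sites lay at the end nearest the stop codon, and 15 of 15 cytosines over 55 nt were listed there in OGD/R 3 h. At chr4:53860695 the Tmem38b scores were 77, 831 and 674 in control and 1000 in each library of both OGD/R groups.

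Vmp1, whose product acts in the formation of autophagosomes, holds the microRNA gene Mir21a near the end of its 3′ UTR. Of its 4 sites, 3 lay in the mature mmu-miR-21a-5p, at positions 4, 9 and 13 from its 5′ end, and had a score of 1000 in all 9 libraries. These are all of its cytosines, and the first is in the seed (bases 2 to 8, in capitals), the part that pairs with targets.
mmu-miR-21a-5p: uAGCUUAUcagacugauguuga
The fourth site of Vmp1, chr11:86584119, lay in the hairpin just past the mature strand and was listed only in OGD/R 3 h, with scores of 1000, 941 and 1000. The files cannot tell the microRNA or its precursor from the Vmp1 mRNA. The mean predicted probability that these 4 cytosines are unpaired was 0.109.

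Prkce encodes protein kinase C epsilon, and its 3 sites lay within 6 nt, 2673 to 2678 nt past the stop codon. At chr17:86657360 its scores were 598, 383 and 262 in control, 1000 in each OGD/R 1.5 h library, and 1000, 1000 and 957 in OGD/R 3 h, so both OGD/R groups lay above control. The other Prkce site in all libraries, chr17:86657365, had scores of 235, 48 and 597, of 597, 110 and 134, and of 121, 138 and 312 in the 3 groups, which overlap. Ccl25, a chemokine of the small intestine and thymus that binds CCR9, had a single 3′ UTR site, chr8:4359885, at 370 nt past the stop codon. Its scores were 258, 602 and 142 in controls, 338, 518 and 541 in OGD/R 1.5 h and 211, 82 and 53 in OGD/R 3 h. The OGD/R groups did not overlap and control overlapped both. Neither Prkce nor Ccl25 had another copy of a window.

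Between groups, scores can be set side by side only at sites listed in all 6 libraries. Of 61 such 3′ UTR sites, 13 (21.3%) had lower scores in every OGD/R 1.5 h library than in every control library, where 13.6% of all mRNA sites did, and 5 (8.20%) had higher ones, against 9.18%. Of the 13, 11 were neighbouring Lars2 sites, and the others were in Des and Cyb5r3, while the 5 higher ones were 3 in Tmem38b and 1 each in Prkce and Net1. For OGD/R 3 h against control 5 of 61 sites (8.20%) were higher and 2 (3.28%) lower, against 10.8% and 15.6% of all mRNA sites. The higher ones were 3 Tmem38b sites and 1 site each of Prkce and Actb, and 1 of the lower ones was in Slc43a2. For OGD/R 3 h against OGD/R 1.5 h, 12 of 59 sites (20.3%) were higher, against 12.5%, of which 11 were in Lars2, and 2 (3.39%) were lower, against 15.5%. With so few genes, these counts describe the genes named and not 3′ UTRs at large. Of the sites compared, 23 were at the cap in all 9 libraries and could not be called in any comparison. Further Lars2 sites were at the cap in every control and OGD/R 3 h library and could not differ between these groups. Median scores were higher at 3′ UTR than at CDS sites, so the shares of all mRNA sites are no like background.

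Over all listed sites, the median score of 3′ UTR sites was 59.0 ± 6.08 in control, 43.3 ± 2.08 in OGD/R 1.5 h and 38.8 ± 4.48 in OGD/R 3 h (SD over 3 libraries). CDS sites of the same libraries had medians of 7 to 8, 5 and 9 to 11. Of the 3′ UTR sites of a library, 81.5% to 90.3% had a score of at least 10, and 32 to 67 were at the cap.

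The 5 genes with most 3′ UTR sites, among them Actb, Lars2, Arhgdia and Tmem38b, held 248 of the 1269 sites (19.5%). At the other end, 224 genes (50.9%) had a single site, and 53 had 5 or more. In 146 genes (33.2%) every mRNA site of the gene lay in the 3′ UTR.

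Actb, cytoplasmic β-actin, whose 3′ UTR carries a known zipcode for transport of the mRNA, had 71 sites 173 to 650 nt past the stop codon. A library listed 15, 20 and 17 Actb sites in controls, 13, 17 and 16 in OGD/R 1.5 h and 41, 34 and 36 in OGD/R 3 h, so that OGD/R 3 h lay above the other groups, which overlapped. For 69 of the 71 sites the window had another copy in the genome. All 10 cytosines over 27 nt at chr5:142903250-142903276 were listed, 10 of them in OGD/R 3 h, 4 in OGD/R 1.5 h and 0 in control. The Actb site printed above, chr5:142903394, scored 186, 372 and 233 in control, 347 and 494 in the OGD/R 1.5 h libraries that listed it, and 444, 464 and 378 in OGD/R 3 h. At chr5:142903382 of Actb, scores were 530, 657 and 779 in OGD/R 3 h, and no other library listed the site.

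Arhgdia encodes an inhibitor of GDP release from small GTPases that act on the actin cytoskeleton. It had 36 sites, with 4, 6 and 2 in a control library, 11, 11 and 4 in OGD/R 1.5 h, and 13, 8 and 11 in OGD/R 3 h. The OGD/R 3 h libraries lay above control, and OGD/R 1.5 h overlapped both. Only 1 Arhgdia site was listed in all 3 libraries of control, 0 in OGD/R 1.5 h and 1 in OGD/R 3 h, and 13 sites lay in a run of 53 nt.

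Tmbim6, an inhibitor of cell death in the endoplasmic reticulum, had 1, 1 and 0 sites in controls, 3, 2 and 1 in OGD/R 1.5 h, and 12, 3 and 8 in OGD/R 3 h, out of 19 in all. The OGD/R 3 h libraries of Tmbim6 ranged widely and touched the OGD/R 1.5 h range. Slc43a2, a carrier of neutral amino acids, had 14 sites, with 3, 4 and 3 in controls, 2, 2 and 5 in OGD/R 1.5 h and 7, 8 and 6 in OGD/R 3 h. Its sites reached 4791 nt past the stop codon, and at chr11:75577151 control scores of 262, 242 and 312 stood against 101, 86 and 57 in OGD/R 3 h, with no score in OGD/R 1.5 h.

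The other genes described among the 10 with most sites are known for epithelia of the gut. Pigr, the receptor that carries IgA and IgM through epithelial cells, had 16 sites, with 2, 4 and 2 in controls, 3, 5 and 3 in OGD/R 1.5 h and 9, 10 and 10 in OGD/R 3 h. The Pigr site printed above, chr1:130851655, scored 137, 219 and 180 in control, 31 in 1 OGD/R 1.5 h library, and 80, 74 and 229 in OGD/R 3 h, where the groups with several values overlap. Muc13, a transmembrane mucin, had 18 sites, with 4, 2 and 8 in controls, 4, 3 and 3 in OGD/R 1.5 h and 4, 3 and 4 in OGD/R 3 h, and did not separate the groups. Lyz1, a lysozyme of Paneth cells, had 13 sites, with 4, 2 and 7 in control, none in OGD/R 1.5 h and 6, 5 and 10 in OGD/R 3 h. All 13 Lyz1 windows had another copy in the genome. Pigr is itself 1 of the 29 intestinal markers, whose mRNA sites were fewest in OGD/R 1.5 h and most in OGD/R 3 h, and the part of cell content in its values was not tested.

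**Figure D2:**
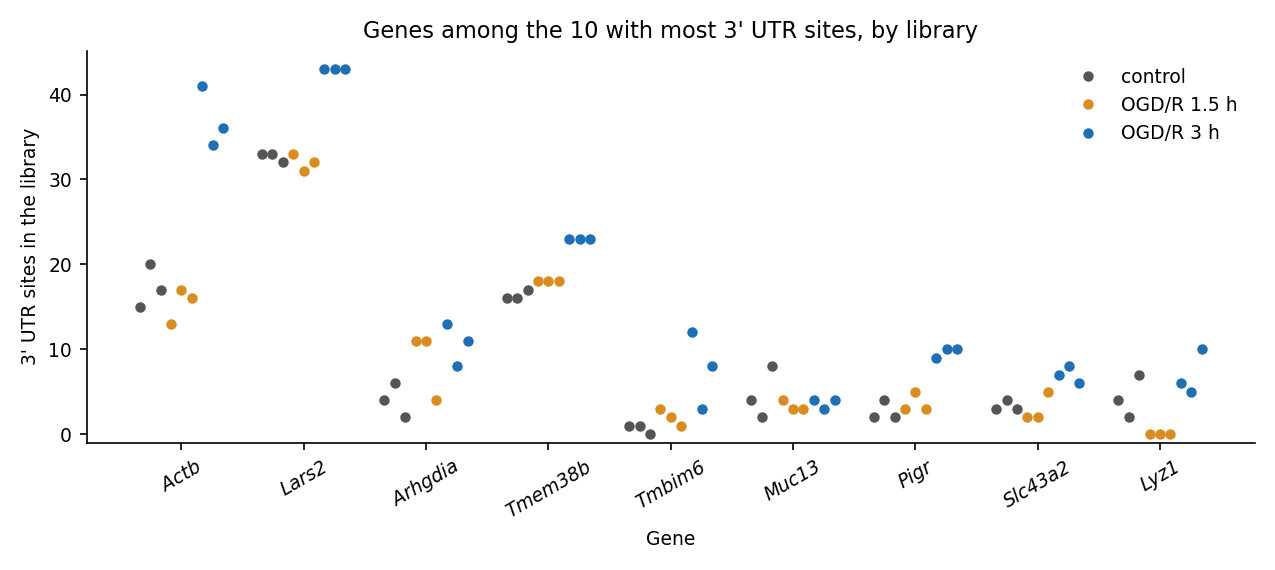
Number of 3′ UTR sites in each of the 9 libraries for 9 of the 10 genes with most such sites, with 1 point per library coloured by group. Actb goes from 15 to 20 sites in control to 34 to 41 in OGD/R 3 h, while Muc13 overlaps in all groups and Lyz1 has no site in OGD/R 1.5 h.

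**Figure D3:**
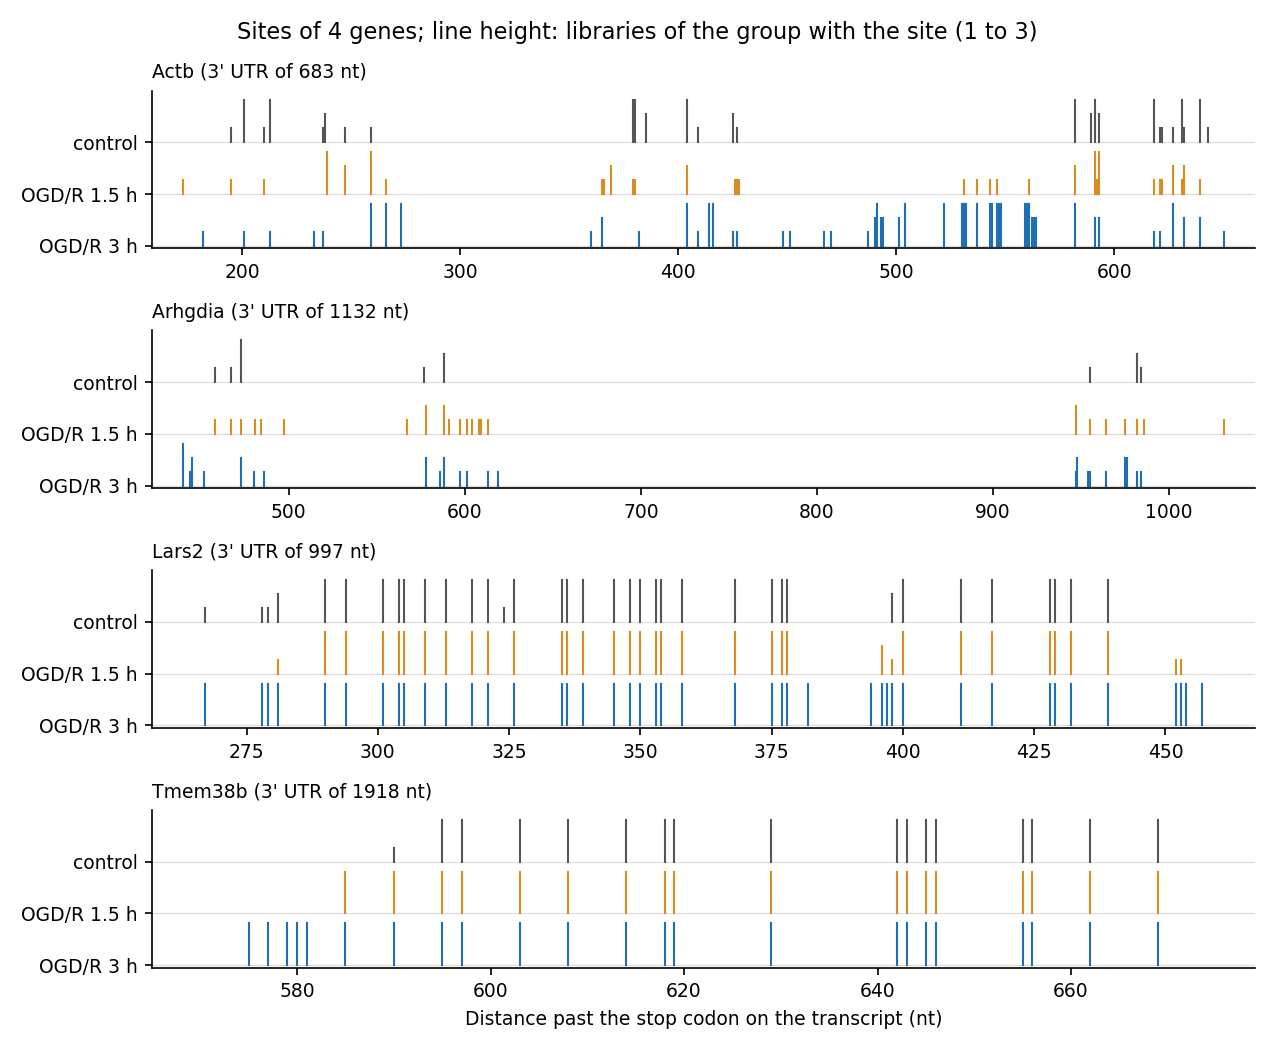
Sites of 4 genes along the 3′ UTR, with distance past the stop codon in nt on the horizontal axis and 1 row per group, where the height of a line is the number of libraries of the group that list the site (1 to 3). In Lars2 and Tmem38b nearly all lines reach 3 in every group, in Arhgdia most stop at 1, and in Actb heights vary and the lines stand densest in OGD/R 3 h.

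Sites called in all libraries of 1 group alone came mostly 1 or 2 to a gene. In control the genes with most were Apof, an apolipoprotein, and Muc13, with 2 each, and 28 genes had 1. At chr16:33819022 the Muc13 scores in control were 139, 189 and 127. The Apof scores were low, at 5, 9 and 20 at chr10:128270680. In OGD/R 1.5 h 5 genes had 2 each, Bsg, the membrane glycoprotein basigin, Gng12, a G protein γ subunit, Muc13, Pigr and Rassf3, of the RASSF family. Gng12 had scores of 118, 32 and 157 at chr6:67018468, and Bsg of 32, 25 and 98 at chr10:79711932. In OGD/R 3 h Actb had 13, and Lars2, Tmem38b and Tmsb4x, which encodes the actin-binding thymosin β4, had 5 each. Muc13 so had such sites in every group, among them 1 at 148 nt past the stop codon in control and 1 at 608 nt in OGD/R 1.5 h, with 1 site in OGD/R 3 h.

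Sites were denser in the first 800 nt of the 3′ UTR than farther on, among annotated transcripts that have a site. A short 3′ UTR counted in this way adds at least 1 site and few cytosines, all of them in the near classes. How far this choice of transcripts makes the fall was not tested. Per 1000 cytosines of the 443 transcripts used, there were 15.4 sites from 101 to 200 nt past the stop codon, 15.1 from 201 to 400, 13.0 from 401 to 800, 4.44 from 801 to 1600, and 2.06 farther on. Without the 5 genes with most sites these values were 13.6, 12.1, 8.54, 4.25 and 2.07. In each group, over its own transcripts, density fell past 800 nt, and up to there control and OGD/R 3 h were highest from 201 to 400 nt. Control had 9.13, 10.6, 9.19, 2.95 and 1.41 sites per 1000 cytosines, OGD/R 1.5 h 11.002, 10.7, 10.4, 3.27 and 1.74, and OGD/R 3 h 16.4, 19.0, 15.04, 4.84 and 1.905. OGD/R 3 h lay above control in every class, by the most from 201 to 400 nt. Its 214 transcripts had 81611 cytosines, against 109840 in the 236 of control. The 5 genes with most sites were not left out by group.

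Toward the transcript end the profile was flatter. There were 10.0 sites per 1000 cytosines in the last 100 nt, 14.9 from 100 to 199 nt before the end, 9.42 from 200 to 399, 9.56 from 400 to 799, 5.08 from 800 to 1599 and 4.70 farther away. In these classes short and long 3′ UTRs mix, so each 3′ UTR was also cut into 5 parts of equal length. From the stop codon on, the 5 parts held 29.6%, 24.0%, 19.9%, 15.4% and 11.2% of sites, against 20.9%, 20.4%, 20.3%, 20.2% and 18.1% of cytosines. With each gene given the same weight the shares were 27.6%, 22.9%, 20.4%, 17.5% and 11.6%, and the slope was still there. In control and OGD/R 1.5 h the next part held most sites, 30.9% and 29.4%, but with equal weight per gene the first part led there too, with 26.98% and 26.1%.

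The median distance past the stop codon was 582, 531 and 523 nt in control, 567, 581.5 and 578 nt in OGD/R 1.5 h and 473, 481 and 523.5 nt in OGD/R 3 h. The median distance to the transcript end was 681, 692.5 and 671 nt, 684, 686 and 703 nt, and 619, 597 and 602 nt. OGD/R 3 h sites lay nearer the transcript end in every library, while for the distance to the stop codon the highest OGD/R 3 h library passed the lowest control library. The 3′ UTRs with sites had a median of 1660 nt, against 893 nt for all genes whose 3′ UTR is over 100 nt and 1186 nt for those with a site anywhere in the mRNA. A longer 3′ UTR has more cytosines that can be listed, and the part of this in the difference of lengths was not tested.

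**Figure D4:**
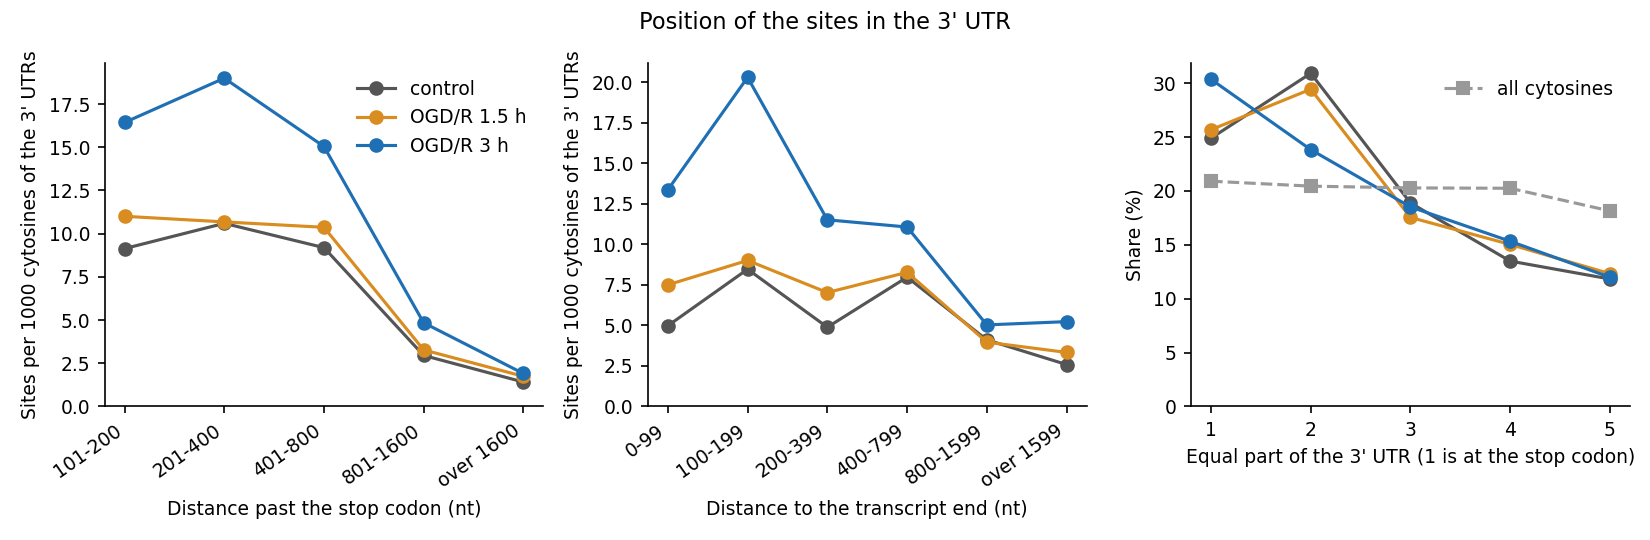
Sites per 1000 cytosines against distance past the stop codon (left) and before the transcript end (middle), both in classes of nt, and share of sites in percent by part of the 3′ UTR, cut into 5 of equal length (right), each by group, with all cytosines of the 3′ UTRs as the dashed line in the right panel. Density falls past 800 nt in every group, and the last part holds 11.8% to 12.3% of sites of a group against 18.1% of cytosines.

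By the bases after it, a cytosine is CG, CHG or CHH, where H is A, C or U. Of the 3′ UTR sites 11.98% were CG, 42.2% CHG and 45.8% CHH, against 5.68%, 23.6% and 70.7% of all cytosines more than 100 nt past the stop codon in the same transcripts. CDS sites had more CG (19.3%), and sites within 100 nt of the start codon more still (30.3%). CHG was thus more frequent among 3′ UTR sites than among the cytosines there, and the share was 46.0% without the 5 genes with most sites.

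The context differed between the groups, in a way not particular to 3′ UTRs. For their mRNA sites as a whole, the authors report a lower share of CG and a higher share of CHH after OGD/R. CG made up 19.9%, 19.7% and 13.7% of 3′ UTR sites in the libraries of controls, 14.7%, 12.7% and 14.0% in OGD/R 1.5 h and 10.5%, 12.4% and 10.96% in OGD/R 3 h. CHH made up 34.8%, 38.4% and 40.6% in controls, 40.2%, 42.7% and 44.9% in OGD/R 1.5 h and 53.7%, 49.6% and 51.1% in OGD/R 3 h. For CHH the OGD/R 3 h libraries lay above all others, and for CG they lay below them, with control replicate 3 apart from the other control libraries. The 10 nt on either side of a site held 37.6 ± 0.458% G in control, 35.1 ± 0.696% in OGD/R 1.5 h and 30.5 ± 0.302% in OGD/R 3 h, with SDs over libraries. The share of U, read as T, was 20.4%, 21.6% and 26.4% in the same order, and that of C 16.1%, 17.9% and 21.1%, so that G plus C moved only from 53.7% to 51.6%.

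Position by position, G stood on both sides of the sites. It was the base 2 nt before the site in 42.6% of sites, against 22.9% of cytosines, and 3 nt before it in 40.3%, against 21.8%. Downstream it was found in 46.1% at 2 nt, 34.7% at 3 nt and 38.4% at 4 nt, against 25.1%, 23.0% and 24.6% of cytosines. At 2 nt downstream the share was 50.6% in the union of control, 47.8% in OGD/R 1.5 h and 41.6% in OGD/R 3 h.

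**Figure D5:**
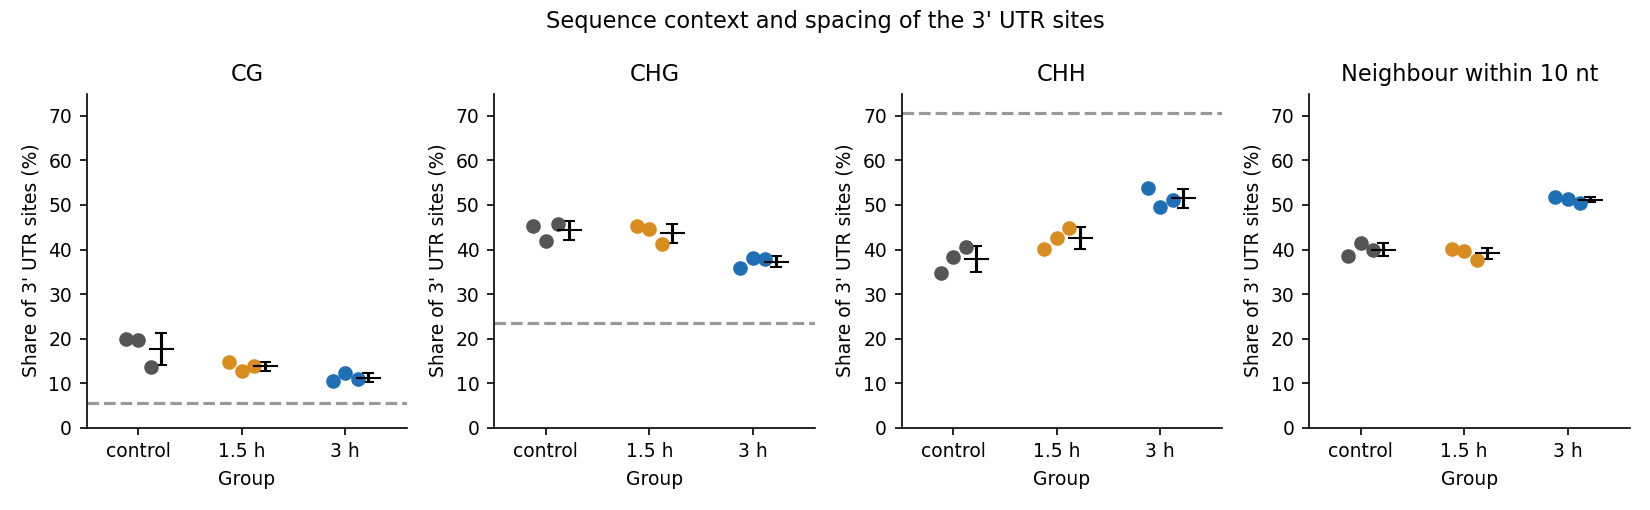
Share of 3′ UTR sites in percent in the CG, CHG and CHH contexts and of sites with a neighbour up to 10 nt away in their library, each point being 1 library and the line with the error bar the mean ± SD of a group, and the dashed line the share among all cytosines of the same 3′ UTRs. In OGD/R 3 h, CHH reaches 49.6% to 53.7% and sites with a neighbour 50.5% to 51.8%, both above all libraries of the other groups.

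Sites stood in runs in part of the genes. With runs joined where sites lay within 10 nt, 622 sites (49.0%) were isolated, 422 lay in runs of 2 to 4 and 225 (17.7%) in runs of 5 or more. Within a library, 38.6%, 41.5% and 39.9% of control sites had a neighbour within 10 nt, 40.2%, 39.6% and 37.7% in OGD/R 1.5 h, and 51.8%, 51.2% and 50.5% in OGD/R 3 h. Control and OGD/R 1.5 h overlapped, and OGD/R 3 h lay above both by about 11.2 percentage points over control, or 7.76 points without the 5 genes with most sites. Over all libraries 51.0% of 3′ UTR sites had a neighbour, fewer than in the CDS (66.4%) and around the start codon (74.0%).

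Since bisulfite acts on unpaired cytosines, the pairing of the sites was predicted from sequence. The probability of being unpaired, folded in windows of 150 nt, averaged 0.354 at 3′ UTR sites and 0.453 at all cytosines of the same 3′ UTRs. It was 0.306 in control, 0.352 in OGD/R 1.5 h and 0.388 in OGD/R 3 h, with library means of 0.297 to 0.318, 0.330 to 0.357 and 0.382 to 0.403, which do not overlap. The mean over genes was 0.333, and over sites with no other copy of their window 0.345. Set against cytosines not matched for position or flanking bases, sites thus lay at cytosines predicted to be more paired, in control the most. The part of incomplete conversion in this was not tested.

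Motifs of the writers were looked for on the transcript strand with the site as the first letter. CNGGG, the motif known for NSUN2, was found at 72 sites (5.67%), against 1.89% of the cytosines of the same 3′ UTRs and 3.01% of CDS sites. By group it stood at 37 sites in control (7.68%), 34 in OGD/R 1.5 h (7.10%) and 31 in OGD/R 3 h (4.70%). The number of such sites in a library was 24, 21 and 22 in controls, 22, 20 and 23 in OGD/R 1.5 h and 18, 18 and 17 in OGD/R 3 h, so that with more sites in all the libraries of OGD/R 3 h had fewer of these. A looser form, with G at 2 or more of the positions 2 to 4 nt downstream, stood at 34.8% of 3′ UTR sites and 15.7% of cytosines, and at 43.6%, 37.8% and 27.8% by group. CDS sites had it in 32.9%.

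CTCCA, the motif known for NSUN6, stood at 7 sites (0.552%), against 0.659% of cytosines and 0.410% of CDS sites. Its letter 2 nt after the site is C and not the G of CNGGG, so a site cannot have both. None of the 7 sites was in control, 2 were in OGD/R 1.5 h (0.418% of its sites) and 5 in OGD/R 3 h (0.759%). Of the cytosines in the transcripts of each group, 0.636%, 0.632% and 0.689% had the motif. With so few sites, no difference between the groups is read from these counts. The site with most libraries was chr4:149150293 in Pgd, an enzyme of the pentose phosphate pathway, with scores of 51, 39 and 18 in OGD/R 3 h. Pgd had 9 sites, all in OGD/R 3 h, with 6, 5 and 6 in a library. The CTCCA site of Eps8l2, related to the actin regulator EPS8, was listed in 2 OGD/R 3 h libraries with scores of 51 and 18. Those of H2-Ab1, a chain of MHC class II, St3gal4, a sialyltransferase, Kctd10, a ubiquitin ligase adaptor, Gpa33, a surface glycoprotein of the gut epithelium, and Cap1, a binder of actin monomers, were listed in 1 library each. In the windows below, shown as examples of this motif in full, it starts at the capital.
H2-Ab1, chr17:34269295-34269315, + strand: attccagagaCtccatctgtg
Eps8l2, chr7:141362972-141362992, + strand: agagtggggaCtccacagcta
Gpa33, chr1:166166179-166166199, + strand: cacctggtgaCtccacccaag

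The functional lists were read against all protein-coding genes, of which 2589 of 21000 had an mRNA site and 440 (2.10%) a 3′ UTR site. Of 83 cytosolic ribosomal protein genes 27 had an mRNA site and only Rpl41 a 3′ UTR site, with scores of 52 and 26 in 2 OGD/R 1.5 h libraries at 108 nt past the stop codon. Of 15 m5C enzymes and binding proteins 3 had an mRNA site (Alyref, Tet3 and Ybx1) and none a 3′ UTR site. Of 10 genes of iron handling, several of which carry known control elements in a UTR, 4 had an mRNA site and none a 3′ UTR site.

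Of 29 proteins that bind 3′ UTRs, Tnrc6b and Zfp36l2 had 3′ UTR sites, and of 20 genes of 3′ end processing only Cpsf7, a subunit of the cleavage factor. The Cpsf7 site, 237 nt past the stop codon, had scores of 38 and 30 in 2 control libraries and of 74 and 94 in 2 OGD/R 1.5 h libraries. Heat shock and chaperone genes had an mRNA site in 11 of 17 genes and a 3′ UTR site in P4hb alone.

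Genes of the actin cytoskeleton had an mRNA site in 24 of 30, where 2589 of 21000 protein-coding genes had one. They had 3′ UTR sites in 8 of 30 (26.7%), namely Actb, Actn4, Capzb, Cfl1, Ezr, Myh9, Tpm1 and Tpm3, with 4 genes in control, 3 in OGD/R 1.5 h and 7 in OGD/R 3 h. For 69 of the 71 Actb sites and for all sites of Cfl1 and Tpm3 the window had another copy in the genome. Of 15 annotated genes of the hypoxia response, 4 had an mRNA site, with 4 genes in control, 4 in OGD/R 1.5 h and 3 in OGD/R 3 h. Ldha and Aldoa, which are both glycolytic enzymes, had 3′ UTR sites, in OGD/R 3 h only, as did 70.4% of the 3′ UTR sites of that group. Ldha had scores of 44 and 27 at 2 sites, each in 1 library, and Aldoa of 28 and 28 at one site and 39 at another. The windows of the Aldoa sites had another copy in the genome.

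Of the intestinal epithelium markers 10 of 29 had a 3′ UTR site, Anpep, Apob, Dpp4, Fcgbp, Krt20, Lct, Pigr, Reg3g, Slc5a1 and Tff3, with 5 genes in control, 6 in OGD/R 1.5 h and 7 in OGD/R 3 h. They gave 8 to 11 sites in a control library, 9 in each OGD/R 1.5 h library and 16 to 20 in OGD/R 3 h. Slc5a1, the sodium-glucose cotransporter of enterocytes, had 10 sites, and at chr5:33162522 its scores were 951, 590 and 144 in control and 28, 22 and 20 in 3 of the other libraries. The aminopeptidase Anpep had scores of 103, 245 and 180 in control alone at chr7:79821965 and of 28, 16 and 17 in OGD/R 3 h alone at chr7:79821938, 27 nt away. Of smooth muscle markers only Des, which encodes desmin, had a 3′ UTR site. At chr1:75367593 the Des scores were 481, 98 and 179 in control and 74, 80 and 76 in OGD/R 1.5 h, with none in OGD/R 3 h.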

How the data were processed

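Per the labels and the methods of the study, RNA was depleted of rRNA, converted with bisulfite and sequenced, and the authors trimmed reads with Cutadapt (version 1.9.3 in the submitters' processing notes, which also name CASAVA 1.8 and STAR), aligned them with meRanGh to mm10 and called sites in each library with meRanCall. The limits for a credible site were a level of 0.1 and a coverage of 10. The methods name STAR for the input libraries, and whether these entered the calling of sites is not given in the sources used here. The deposited files give each site a score, 10 times that of the authors' caller, cut to a whole number with a cap at 1000. It is not a level, and depth is unknown.

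Sites were placed on 37867 curated RefSeq transcripts of GRCm38 (mm10), with positions counted from 1. All 25890 fell on a cytosine of their strand. Placement was tested on simulated data. Where transcripts of a gene placed a site differently, 1 transcript was used for its distances. Other copies of the 101 nt around a site were searched with BLAST 2.17.0 (at least 90% identity over 80 nt). Unpaired probability came from RNAplfold of ViennaRNA 2.7.2 (window 150, span 100). Python 3.11.15, numpy 2.4.6, samtools 1.23.1, pysam 0.24.0 and matplotlib 3.10.9 were used. The windows and the sequence of the microRNA were read from mm10 and RefSeq.

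The libraries of a group were compared by the coverage of their shared sites and counted as 1 sample, so no test between groups was made, and percentages of all mRNA sites are given as background. The labels do not say whether the libraries of a group come from separate cultures.

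The members and lists were chosen with earlier results of these data known. The genes named are the 10 with most 3′ UTR sites, those of sites in all 9 libraries, for each group the 3 with most sites called in all its libraries and in no other group (ties by symbol), those with CTCCA, those on the marker and functional lists and the 3 with the longest runs. Net1 and Cyb5r3, each with 1 site whose scores did not overlap between groups, Tmsb4x and Rassf3, which tie with genes found in 1 group, and the single sites quoted beside the printed ones, were chosen after their values were seen. Of the genes that the rule names, Ahcyl2, 1 of 28 tied genes, is left out, and 1 is not reported here.

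Alternatives were every transcript placing the site in the 3′ UTR, sites without a neighbour within 10 nt, a score of at least 10, sites in at least 2 libraries of the group, more than 50 nt past the stop codon, sites within 5 nt counted as shared, median scores, and the omission of single libraries. Added once the data had been seen were sites with no other copy, all genes but the 5 with most sites, and predicted RefSeq transcripts.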

Additional observations from a re-analysis of the deposited data

Results flagged for a closer look

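The number of 3′ UTR sites moved in opposite directions in the OGD/R groups. Every OGD/R 1.5 h library had fewer 3′ UTR sites than every control library, and every OGD/R 3 h library had more, with means of 261 sites in OGD/R 1.5 h, 274 in control and 385 in OGD/R 3 h, so that the OGD/R groups lay 124 sites apart. The same held for all mRNA sites, with means of 3595, 3937 and 4880 and a distance of 1285 sites. For 3′ UTR sites the OGD/R 1.5 h libraries, with 259 to 265, lay close to the 267 to 284 of control. Neither difference was tested, since a group counts as 1 sample. The mRNA sites of intestinal markers stood in the same order, with 86 to 93 in OGD/R 1.5 h, 134 to 154 in control and 292 to 312 in OGD/R 3 h. The unknown depth of the libraries and their cell content cannot be told apart from the treatment.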

How the results depend on the processing

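No value below has a test, and depth, which the files do not give, limits all counts of sites. Of 119 alternatives besides leaving out a library, 71 moved a value by less than the spread between libraries. No paired analysis was possible because the values come from no test, the libraries of a group being counted as 1 sample, which for OGD/R 1.5 h was assumed from the other groups.

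Differences are OGD/R 1.5 h or OGD/R 3 h against control, and the cause of each move was not tested. The log2 ratio of the number of 3′ UTR sites went from -0.07 in OGD/R 1.5 h to -0.14 with a score of at least 10, -0.15 with sites in at least 2 libraries and -0.18 without the 5 genes with most sites. In OGD/R 3 h it went from 0.49 to 0.19 with no neighbour within 10 nt, 0.40 with no other genomic copy (left out among 3′ UTR sites alone) and 0.33 without the 5 genes. The share of mRNA sites went from 0.311 points in OGD/R 1.5 h to -0.521 with no neighbour, 1.06 with a score of at least 10, 1.104 with at least 2 libraries and -0.178 without the 5 genes. In OGD/R 3 h it went from 0.929 points to -0.0242 with no neighbour, the only reversal between groups that did not overlap, and to 0.211 with the score minimum, 1.50 with at least 2 libraries, 0.336 with no other copy, 0.108 without the 5 genes, 1.24 from 50 nt past the stop codon and 0.670 with predicted transcripts. The median distance past the stop codon went from 30.2 nt in OGD/R 1.5 h to 54.0 nt without the 5 genes, and from -52.8 nt in OGD/R 3 h to -102 nt with no neighbour, -92.2 nt with no other copy and -123 nt without the 5 genes. The distance to the transcript end went from 9.50 nt in OGD/R 1.5 h to -27.3 nt with no neighbour, -3.67 nt with the score minimum and 23.0 nt with at least 2 libraries. In OGD/R 3 h it went from -75.5 nt to -229 nt with no neighbour, -98.0 nt with the score minimum, -64.0 nt with at least 2 libraries, -188 nt with no other copy and -231 nt without the 5 genes.

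The CHH share of OGD/R 1.5 h went from 4.65 to 0.726 points with at least 2 libraries. The share of sites with a neighbour went from -0.824 points in OGD/R 1.5 h to 1.60 with at least 2 libraries and -5.98 without the 5 genes, and from 11.2 points in OGD/R 3 h to 13.4 and 7.76. The log2 ratio of genes in OGD/R 3 h went from -0.05 to 0.0511 with at least 2 libraries. The share of sites in 1 group only was 80.6% for OGD/R 1.5 h and control (82.4% for CDS sites), and 90.6% with no neighbour, 81.7% with the score minimum, 76.6% with at least 2 libraries, 87.3% with no other copy, 88.9% without the 5 genes and 75.8% with sites within 5 nt counted as shared. For OGD/R 3 h it was 86.2% (88.0% for CDS sites), and 94.1% with no neighbour, 82.0% with at least 2 libraries, 92.0% with no other copy, 92.8% without the 5 genes and 81.5% within 5 nt, with 85.4% to 86.8% when a library was left out. The mean log2 score of sites in all 9 libraries differed by 0.08 in OGD/R 3 h, and by 0.0251 with medians. The CNGGG share of 5.67% became 34.8% with 2 or more G among the 3 bases.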
